A study of Mus musculus with 6 samples.

Results

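The pancreatic lipases and their cofactor were read in pancreatic islets of mice treated with B29, a monoclonal antibody against serpin B13, or with a control IgG. The members were taken by gene symbol: Pnlip, Pnliprp1, Pnliprp2, Cel, Clps and Pla2g1b, which make 6 of the 20289 genes with a named probe. They were represented by 8 of the 35784 named probes, 1 each for Pnlip, Pnliprp1, Cel and Pla2g1b and 2 each for Pnliprp2 and Clps. For 1 value per gene, the probe with the higher mean was taken. Of the 6 genes, 5 were detected on all 6 arrays, and Pnlip was detected on 0.

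The mice were BALB/c in both groups. They received 4 intraperitoneal injections of 25 µg of B29 or of control IgG (100 µg in all) on alternate days, starting at the age of 2 weeks. They were killed at the age of 5 weeks, with 2 weeks left between the last dose and the isolation of islets. The islets were separated into classes of under 100, 100 to 200 and over 200 µm in diameter, and RNA of each class and antibody was hybridised to 1 Illumina mouse bead array, which gave 6 groups of 1 array. Whether the classes of an antibody share mice, and how many mice were pooled, is not given in the labels, so the p-values below measure only the spread between these arrays.

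Pancreatic triglyceride lipase, encoded by Pnlip, splits dietary triglyceride in the gut, and colipase, encoded by Clps, anchors it to the fat droplet when bile salts cover the surface. Pnliprp1 and Pnliprp2 encode lipases related to it, of which the protein of Pnliprp2 also takes galactolipids and phospholipids, while that of Pnliprp1 has little known lipase activity. Cel encodes the bile salt-stimulated carboxyl ester lipase, and Pla2g1b encodes the secreted phospholipase A2 of pancreatic juice, which is stored as an inactive precursor. All are products of acinar cells of the exocrine pancreas, which surround the islets in the organ and are not endocrine cells.

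The arrays detected between 32.7% and 35.1% of 45281 probes, at a detection p under 0.05. The deposited log2 values had been forced to 1 distribution, with a median of 4.29 and a maximum of 14.20 on every array, so a log2 value gives a probe's place in that distribution. Beta cell markers were read to check the islet label: 9 of 10 had a probe and all 9 were tested, with Ins2 at 13.97 to 14.20 and medians of the 9 between 9.67 and 10.37. Ins1 had no named probe. Ins2 stood at the common maximum on 5 of the 6 arrays, where a difference cannot show.

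The sequences just before the starts of Pla2g1b, Pnliprp2 and Cel are shown because these 3 genes passed the comparison of large with small islets described below, and because acinar enzyme genes are known as targets of a complex of Ptf1a, an E protein and Rbpjl that binds an E-box next to a TC-box. They are 250 bases each, 5′ to 3′ on the gene's own strand, from RefSeq's mouse assembly GRCm38.p6: chr5:115465892-115466141 on the plus strand for Pla2g1b, chr19:58759473-58759722 on the plus strand for Pnliprp2 and chr2:28563404-28563653 on the minus strand for Cel. Capitals mark an E-box, which reads CACCTG on one strand and so appears as CAGGTG where it lies on the opposite one, or a TC-box, which reads TTTCCCA and appears as TGGGAAA where it lies on the opposite one. The marked matches do not overlap.
Pla2g1b: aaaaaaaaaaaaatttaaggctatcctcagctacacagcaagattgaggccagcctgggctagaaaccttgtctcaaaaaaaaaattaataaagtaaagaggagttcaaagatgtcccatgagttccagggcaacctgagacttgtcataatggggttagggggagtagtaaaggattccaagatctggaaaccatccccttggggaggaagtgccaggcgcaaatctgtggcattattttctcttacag
Pnliprp2: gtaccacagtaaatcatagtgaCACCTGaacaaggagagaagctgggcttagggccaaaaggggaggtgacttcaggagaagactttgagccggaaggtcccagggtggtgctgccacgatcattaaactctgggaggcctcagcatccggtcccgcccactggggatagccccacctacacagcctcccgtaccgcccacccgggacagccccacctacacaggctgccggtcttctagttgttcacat
Cel: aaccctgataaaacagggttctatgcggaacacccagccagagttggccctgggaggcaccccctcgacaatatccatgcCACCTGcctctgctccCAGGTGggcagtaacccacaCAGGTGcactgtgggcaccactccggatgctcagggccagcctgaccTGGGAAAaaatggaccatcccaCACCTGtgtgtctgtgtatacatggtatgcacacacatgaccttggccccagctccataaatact
The Cel sequence held 4 E-boxes, whose first bases lay 170, 154, 134 and 65 bases before the start, and 1 TC-box 87 bases before it. The Pnliprp2 sequence held 1 E-box, 228 bases before the start, and no TC-box. Those of Pla2g1b, Pnliprp1 and Pnlip held 0 of either, so 2 of the 5 members found in the table held a match. Among 32817 promoters of the same length, 17.2% held an E-box of these letters, 6.81% a TC-box, 1.17% both and 0.0427% at least 4 E-boxes (14 promoters, Cel among them). A match is a description of the letters and not a binding site. In the RefSeq gene order, Pnlip, Pnliprp1 and Pnliprp2 are direct neighbours on chromosome 19, between Ccdc172 and 1700019N19Rik, while Cel lies on chromosome 2, Pla2g1b on chromosome 5 and Clps on chromosome 17.

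Pnlip, the classical triglyceride lipase, was at background throughout. Its 1 probe, which the platform lists under the older name 1810007A24Rik, had raw intensities of 68.6 to 71.9 and log2 values of 4.13 to 4.22, with detection p-values from 0.479 to 0.967. No fold is given for it, and whether this probe picks up the Pnlip transcript was not tested. The rest of the values concern the other 5 genes.

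These 5 genes ranked the arrays almost alike: highest in islets under 100 µm, lower at 100 to 200 µm and lowest over 200 µm, with the B29 array over 200 µm below all others. Clps, the colipase gene, had a log2 value of 13.45 with B29 and 13.45 with IgG under 100 µm, 12.39 with B29 and 11.93 with IgG at 100 to 200 µm, and 7.58 with B29 and 11.34 with IgG over 200 µm. Its second probe read 12.77 with B29 and 12.83 with IgG under 100 µm, 10.99 and 10.55 at 100 to 200 µm in the same order, and 7.05 with B29 against 9.78 with IgG over 200 µm. Both Clps probes thus put the B29 array over 200 µm lowest, and both antibodies were level under 100 µm. At 13.45, Clps was the 13th brightest of 45281 probes on both arrays under 100 µm, and with B29 over 200 µm it stood at place 2444.

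Among the lipases, Cel had the widest reach on the raw scale. Its log2 value was 13.62 with B29 and 13.41 with IgG under 100 µm, 11.41 with B29 and 10.87 with IgG at 100 to 200 µm, and 6.66 with B29 against 10.20 with IgG over 200 µm. The raw intensities behind these were 15433 with B29 and 11094 with IgG under 100 µm, 3034 and 1928 at 100 to 200 µm, and 146 with B29 against 1391 with IgG over 200 µm. Cel was the 7th brightest probe of the B29 array under 100 µm and place 4412 of the B29 array over 200 µm.

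Pnliprp1, the lipase-related gene with little known activity, had the smallest step of the 5 between under 100 and 100 to 200 µm. It read 12.76 with B29 and 12.70 with IgG under 100 µm, 11.80 with B29 and 11.78 with IgG at 100 to 200 µm, and 7.27 with B29 against 10.88 with IgG over 200 µm. The antibodies were within 0.06 of each other in both smaller classes, and far apart over 200 µm.

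Pnliprp2 covered a wider range: 11.81 with B29 and 11.64 with IgG under 100 µm, 9.23 with B29 and 8.81 with IgG at 100 to 200 µm, and 5.02 with B29 against 7.89 with IgG over 200 µm. The second Pnliprp2 probe read 11.73 with B29 and 11.03 with IgG under 100 µm, 8.27 and 7.50 at 100 to 200 µm, and 4.95 with B29 against 7.31 with IgG over 200 µm. On the B29 array over 200 µm both probes were near the limit of detection, with raw intensities of 87.4 and 86.0 and detection p-values of 0.00641 and 0.00748. Raw intensities hold an unsubtracted background, and the median probe of that array read 73.7.

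Pla2g1b, the phospholipase gene, had the widest log2 range of the 5, 7.26. It read 12.50 with B29 and 11.92 with IgG under 100 µm, 9.95 with B29 and 8.91 with IgG at 100 to 200 µm, and 5.24 with B29 against 8.30 with IgG over 200 µm. Its raw intensity of 92.1 on the B29 array over 200 µm was again close to background (detection p 0.00107), against 410 with IgG. With 1 array per group there is no spread within a group, so whether neighbouring levels such as the 2 antibodies under 100 µm differ cannot be tested.

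**Figure D1:**
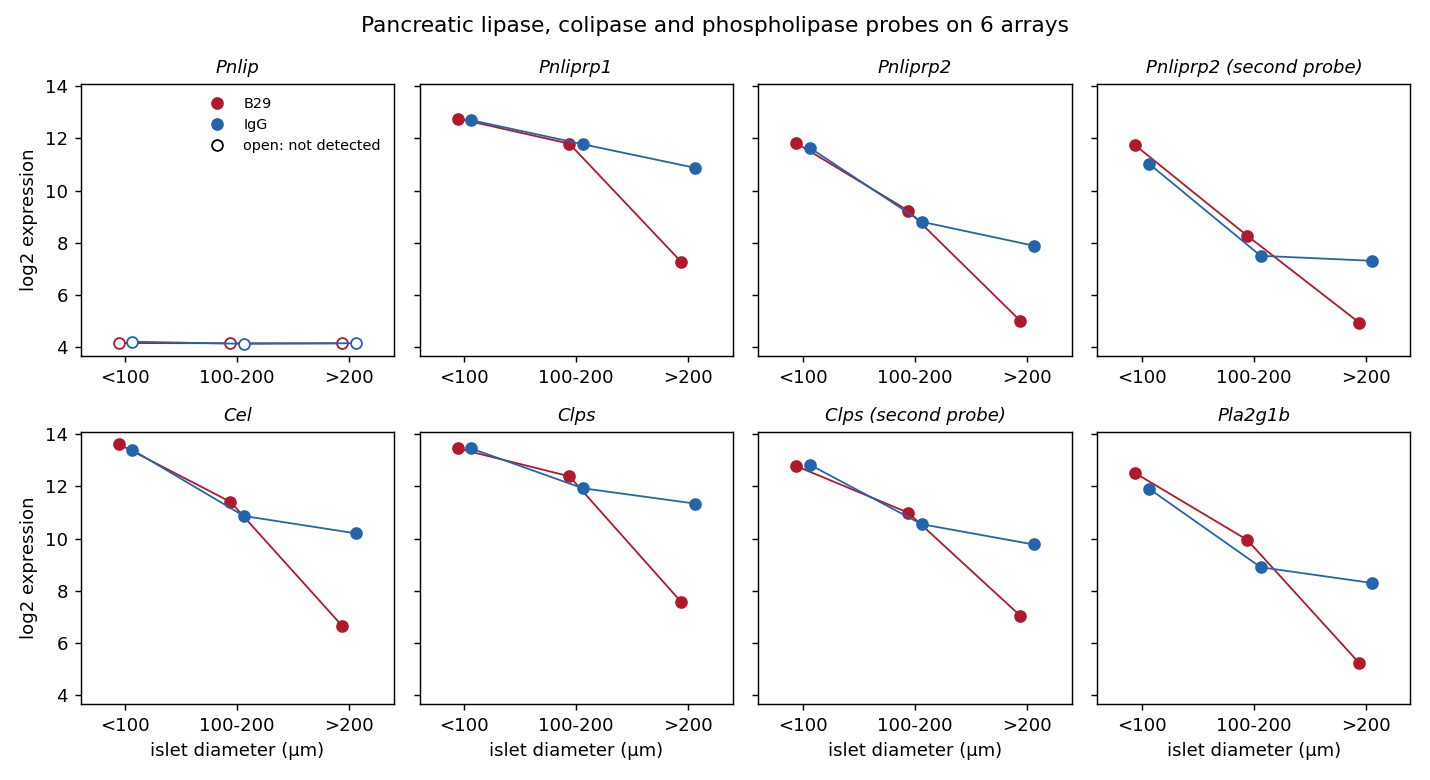
Log2 expression (y axis) of each of the 8 probes against islet diameter class in µm (x axis), with B29 in red and IgG in blue; 1 point is 1 array and open points were not detected. Pnlip lies at 4.13 to 4.22 on all arrays, and the other 7 probes are lowest on the B29 array over 200 µm.

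The first comparison asked how B29 and IgG islets of one size class differed. In islets over 200 µm all 5 genes were lower with B29, with log2 differences of -3.77 to -2.87, while in the smaller classes the differences ran from 0.00 for Clps to 1.05 for Pla2g1b. Over 200 µm the difference, B29 minus IgG, was -3.77 for Clps (13.6-fold lower with B29), -3.60 for Pnliprp1 (12.2-fold), -3.55 for Cel (11.7-fold), -3.06 for Pla2g1b (8.32-fold) and -2.87 for Pnliprp2 (7.33-fold). The second probes gave -2.72 for Clps and -2.36 for Pnliprp2. At least 2-fold lower were 5 of 5 genes, against 0.708% of the 16092 probes detected on either array (114 probes). On the raw scale, before any normalization, the IgG intensity was 12.0 times that of B29 for Clps, 10.8 times for Pnliprp1, 9.51 times for Cel, 4.45 times for Pla2g1b and 3.72 times for Pnliprp2. In bulk islet RNA, fewer cells of a type and less RNA per cell cannot be told apart.

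In islets under 100 µm the median difference of the 5 genes was 0.18, from 0.00 for Clps to 0.59 for Pla2g1b, and 4 of 5 were higher with B29. At least 2-fold higher were 0 of 5 genes, against 0.37% of the 17027 probes detected there. At 100 to 200 µm the median was 0.46, and 5 of 5 genes were higher with B29, from 0.02 for Pnliprp1 to 1.05 for Pla2g1b. Pla2g1b was the 1 gene at least 2-fold higher (2.06-fold), against 0.517% of 17011 probes. The second Pnliprp2 probe read 0.70 under 100 µm and 0.77 at 100 to 200 µm, larger than the 0.18 and 0.42 of the first. The median over all detected probes was 0.00 under 100 µm, -0.01 at 100 to 200 µm and 0.01 over 200 µm. Each class had 1 array per antibody, so these are differences between arrays with no replicate and no test.

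Most of the other acinar genes were also far lower with B29 over 200 µm. Of 40 such genes listed, 31 had a probe and 27 were tested, and their median difference was 0.33 under 100 µm (range -0.27 to 1.15), 0.51 at 100 to 200 µm (-0.05 to 1.30) and -3.02 over 200 µm. The 3 transcription factor genes tested had a median of -0.06 over 200 µm. That median is the value of Ptf1a, which was detected on neither array there, so it is no measure of a difference in level. Rbpjl was not detected on the B29 array over 200 µm. Bhlha15 was higher with B29 there (7.77, against 7.10 with IgG). The summed level of all 27 genes on the linear scale was 199942 with B29 and 171124 with IgG under 100 µm. It was 82449 and 59372 at 100 to 200 µm, and 7936 with B29 against 47575 with IgG over 200 µm. Over 200 µm, 2 of the 27 lay lower than Clps, 2 lower than Pnliprp1, 3 lower than Cel, 13 lower than Pla2g1b and 16 lower than Pnliprp2. The members thus spanned the lower part and the middle of the acinar range, which ran from -4.00 to 0.66. How much acinar tissue each islet sample held was not tested. In the list, 3 genes were detected on 0 arrays, the receptor gene Cckar, the transcription factor gene Gata4 and the amylase gene Amy2a4.

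**Figure D2:**
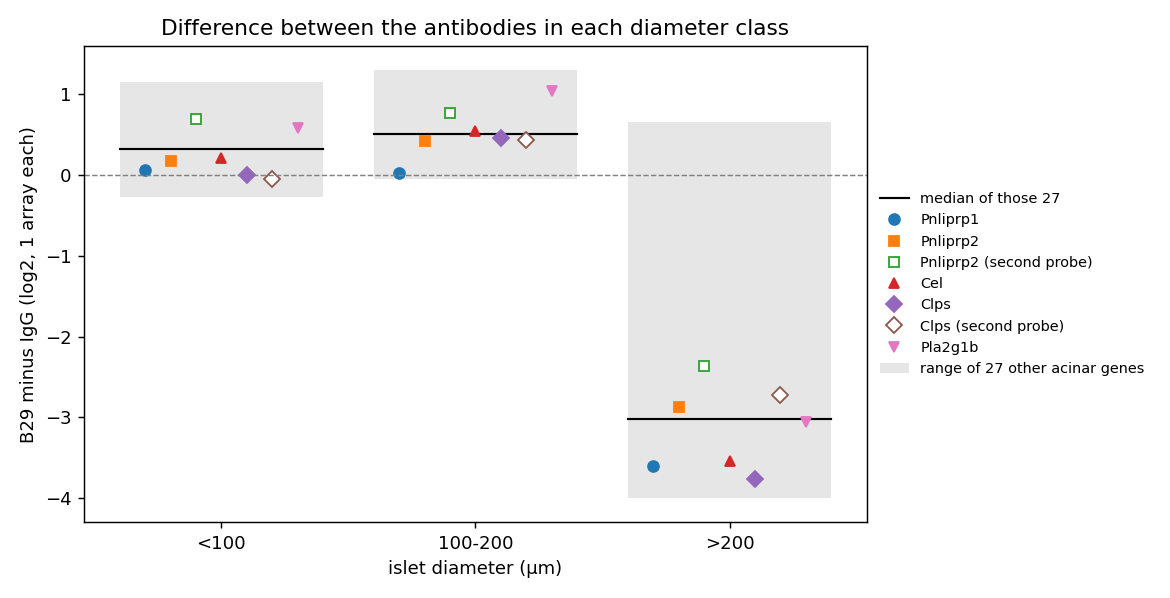
Log2 difference of B29 minus IgG (y axis, 1 array each) for the 7 detected probes in the 3 diameter classes in µm (x axis), with grey bars for the range and black lines for the median of the 27 other acinar genes. All 7 probes lie between -0.05 and 1.05 in both smaller classes and between -3.77 and -2.36 over 200 µm.

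The second comparison took the antibodies over all 3 classes in 1 additive limma fit of antibody and diameter class. None of the 5 genes passed: 0 of 5, against 0.00596% of 16774 probes (1 probe) at a Benjamini-Hochberg adjusted p under 0.05. At an unadjusted p under 0.05 the counts were 0 of 5 genes and 783 probes. Fitted differences of B29 minus IgG were -1.17 for Pnliprp1 (SE 0.60), -1.10 for Clps (SE 0.66), -0.93 for Cel (SE 0.64), -0.76 for Pnliprp2 (SE 0.53) and -0.47 for Pla2g1b (SE 0.64), with limma adjusted p from 0.966 to 0.976. The second probes stood at -0.78 for Clps and -0.30 for Pnliprp2. The sign rested on the class over 200 µm: without the B29 array over 200 µm, or without the IgG array over 200 µm, all 5 were positive, at 0.04 for Pnliprp1, 0.23 for Clps, 0.30 for Pnliprp2, 0.38 for Cel and 0.82 for Pla2g1b, with limma adjusted p from 0.171 to 0.994.

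The third comparison set large islets against small ones over both antibodies. Pla2g1b, Pnliprp2 and Cel fell in islets over 200 µm against those under 100 µm, while Clps and Pnliprp1 were lower without passing. On the log2 scale Pla2g1b fell by 5.44 (SE 0.78, limma adjusted p = 0.0282), or 43.4-fold, the lowest difference of all 16774 probes. Its value on the B29 array over 200 µm was near background. Without background correction Pla2g1b stood at -4.67, above Cel at -4.73. Pnliprp2 fell by 5.27 (SE 0.65, adjusted p = 0.0144 in limma), or 38.5-fold, and its second probe by 5.25 (SE 0.63, adjusted p = 0.0134). Cel fell by 5.08 (SE 0.79, adjusted p = 0.0356 in limma), or 33.9-fold. The colipase gene was divided between its probes: the first had a difference of -3.99 (SE 0.81, adjusted p = 0.0939 in limma), and the second fell by 4.39 (SE 0.60, adjusted p = 0.0219). Pnliprp1 stood at -3.66 (SE 0.73, adjusted p = 0.0923 in limma). In all, 3 of 5 genes passed, against 0.435% of 16774 probes that passed in this direction (73 probes).

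The 3 calls rested on single arrays. Without the B29 array under 100 µm 0 of 5 genes passed (0 of all probes), and without the IgG array under 100 µm 0 of 5 (5 probes). Without the B29 array over 200 µm 5 of 5 genes passed (109 probes), and without the IgG array over 200 µm 5 of 5 (224 probes); the class over 200 µm is then 1 array, assumed to vary like the other classes. The sizes moved with them: Pla2g1b stood at -3.50 without the B29 array over 200 µm and -7.38 without the IgG array, Pnliprp2 at -3.68 and -6.85, Cel at -3.12 and -7.05, Clps at -1.996 and -5.99, and Pnliprp1 at -1.83 and -5.48. They were also lost, at 0 of 5, with 5 other choices of background, scaling, filter and variance model, in all of which each gene's difference stayed negative.

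Of the other acinar genes, 15 of 27 fell in the same contrast and 0 rose, with a median of -4.21 and a range of -5.43 to -0.73. By group, 6 of 13 tested proteases fell (median -4.17), 6 of 9 zymogen granule genes (median -4.92), 1 of 3 amylase and nuclease genes (Amy1) and 2 of 3 transcription factor genes. Amy1 was detected on 2 arrays only, both under 100 µm. It thus entered the test through the class where it was high, and its call carries little weight. The bright amylase gene Amy2a5, detected on 6 arrays, stood at -0.93 without passing (adjusted p = 0.482 in limma). No other acinar gene lay lower than Pla2g1b, while 2 lay lower than Pnliprp2, 4 than Cel, 17 than Clps and 19 than Pnliprp1. These places hold for the deposited values, and the order of Pla2g1b and Cel changed without background correction. Rbpjl, the gene of the acinar partner in the complex named above, had a fitted difference of -3.43 (adjusted p = 0.00247 in limma) and Ptf1a one of -2.64 (adjusted p = 0.00559), though Ptf1a was not detected on either array over 200 µm and Rbpjl not on the B29 array. Bhlha15, an acinar maturation factor gene, stood at -0.73 (adjusted p = 0.212).

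Markers of other cells were read beside these. Of the duct markers, 3 of 7 were tested, and Muc1, an apical mucin gene, fell by 1.90 (adjusted p = 0.0144 in limma). The other tested duct markers did not pass: Sox9 stood at -0.60 and Krt7 at 0.15 (limma adjusted p = 0.238 and 0.792). Krt19 and Cftr were detected on 0 arrays. Of the 9 beta cell markers, Iapp, the gene of the amyloid peptide co-secreted with insulin, rose by 1.19 (adjusted p = 0.0185 in limma), and the list's median was 0.21. Of 8 alpha, delta and PP cell markers, 6 were tested and 0 passed, with a median of 0.42. Of the 6 endothelial, 6 fibroblast and stellate, and 5 macrophage markers tested, 0 passed, and of the lymphoid markers 0 were tested. The part of acinar tissue in the members' differences was not tested.

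**Figure D3:**
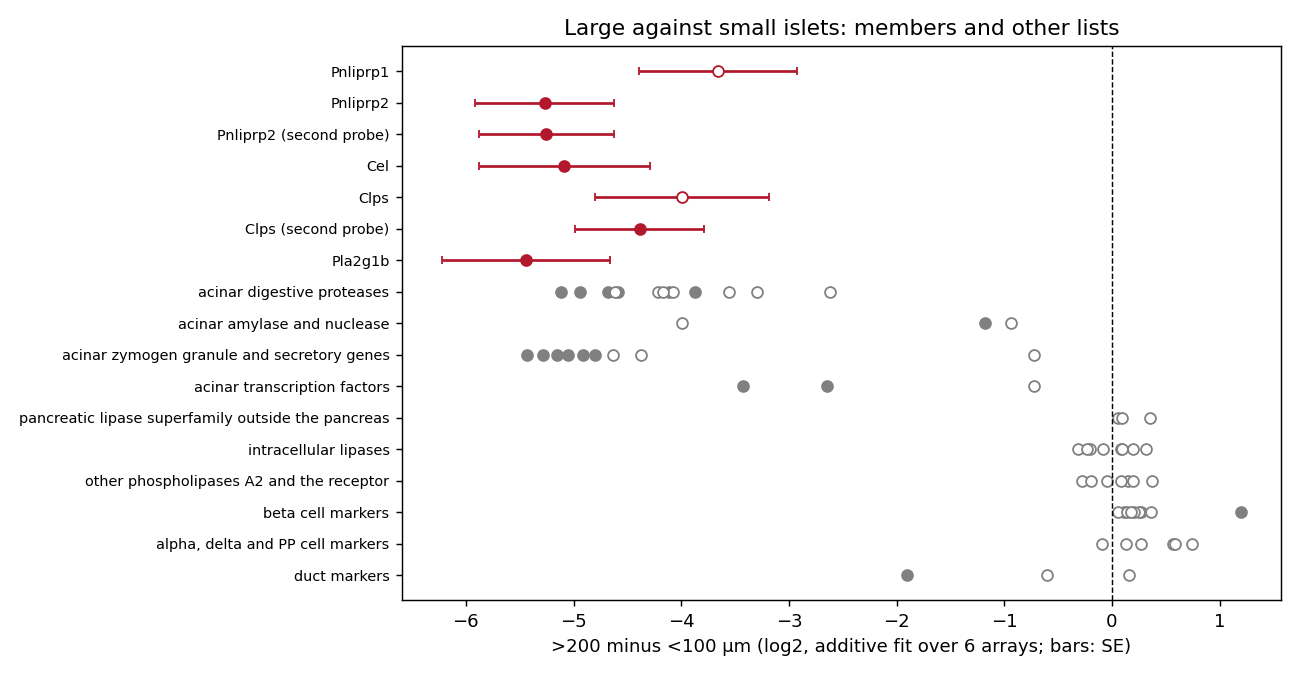
Fitted log2 difference of islets over 200 µm minus those under 100 µm (x axis) for the 7 detected member probes (red, bars SE) and for the genes of the other lists (grey), with filled points for an adjusted p under 0.05. Member probes lie from -5.44 to -3.66, the lipase and phospholipase genes of other tissues lie around 0.

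The drop with size was similar under the antibodies from under 100 to 100 to 200 µm, and was larger with B29 beyond that. From under 100 to 100 to 200 µm the 5 genes differed by a median of -2.21 with B29 and -2.54 with IgG. The step was smallest for Pnliprp1 (-0.96 with B29, -0.92 with IgG) and next for Clps (-1.07 with B29, -1.52 with IgG), whose second probe read -1.78 with B29 and -2.28 with IgG. It was larger for Cel (-2.21 with B29, -2.54 with IgG), Pnliprp2 (-2.58 with B29, -2.83 with IgG) and Pla2g1b (-2.55 with B29, -3.01 with IgG). From 100 to 200 to over 200 µm the 5 genes differed by -4.21 to -4.81 with B29 (median 26.1-fold lower) and by -0.59 to -0.91 with IgG (median 1.59-fold lower). By the probe with the higher mean, the second step was thus nearly equal among the genes within an antibody and unequal between the antibodies. The second probes had smaller steps with B29, at -3.94 for Clps and -3.32 for Pnliprp2. With IgG they stood at -0.77 and -0.19 in the same order. From under 100 to over 200 µm the median was 111-fold lower with B29 and 9.21-fold lower with IgG, again with 1 array per value and no test of the difference between antibodies. The 111-fold is the value of Pnliprp2 and the 26.1-fold that of Pla2g1b, both near background on the B29 array over 200 µm. Without background correction the B29 median from under 100 to over 200 µm moved from -6.79 to -5.51 on the log2 scale.

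In the fit over both antibodies, 0 of 5 genes passed at the first step, against 0.0835% of 16774 probes (14 probes). At an unadjusted limma p under 0.05 the counts were 3 of 5 genes and 1000 of the 16774 probes. The differences were -2.78 for Pla2g1b, -2.71 for Pnliprp2, -2.37 for Cel, -1.30 for Clps and -0.94 for Pnliprp1 (limma adjusted p from 0.354 to 0.933). At the second step 0 of 5 passed as well, against 0% of 16774 probes (5 of 5 genes and 810 probes at an unadjusted p under 0.05), with differences of -2.56 to -2.71 and a limma adjusted p of 0.985 for each. Without the B29 array over 200 µm, or without the IgG array over 200 µm, 5 of 5 genes passed at the first step, beside 141 of all probes. Without the IgG array over 200 µm, 5 of 5 passed at the second step, beside 61 of all probes, with differences of -4.15 to -4.70. There the B29 array is the whole class over 200 µm, and the spread comes from the other classes. The residual spread of the additive fit holds the unequal steps of the antibodies as well as noise.

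**Figure D4:**
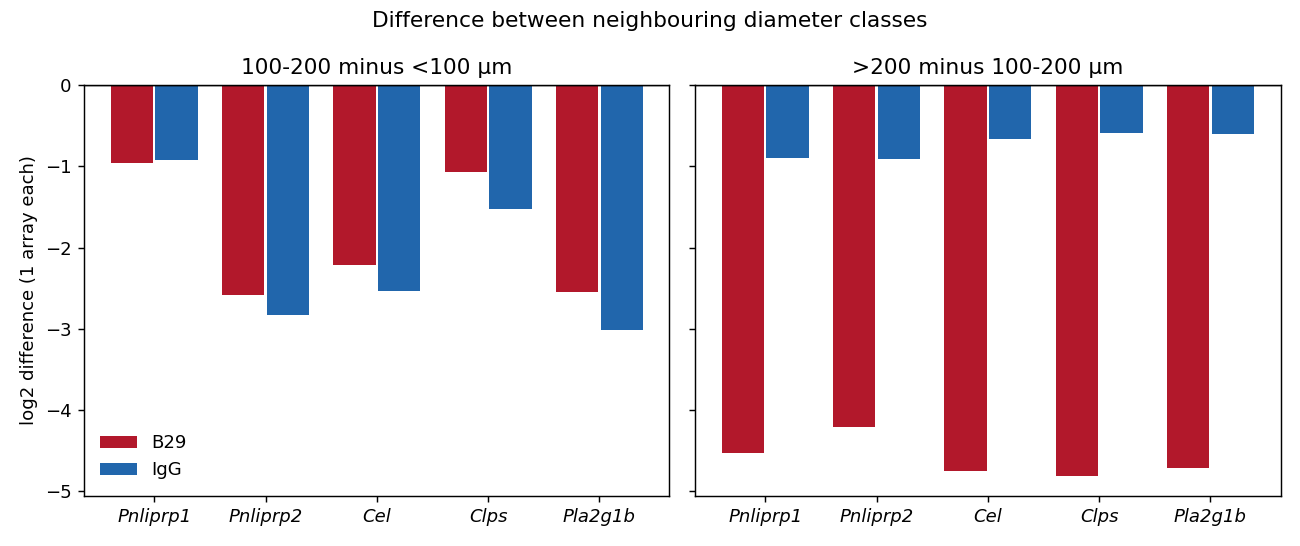
Log2 difference between neighbouring diameter classes (y axis, 1 array each) for each gene (x axis) with B29 (red bars) and IgG (blue bars). The first step is -0.96 to -2.58 with B29 and -0.92 to -3.01 with IgG, and the second is -4.21 to -4.81 with B29 and -0.59 to -0.91 with IgG.

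Within the set, the 5 profiles over the 6 arrays differed mainly in the step from under 100 to 100 to 200 µm. Likeness was measured as the root-mean-square difference of log2 values after each gene was centred on its own mean. Pnliprp1 and Clps were 0.212 apart, Pnliprp2 and Pla2g1b 0.232, Pnliprp2 and Cel 0.240, and Cel and Pla2g1b 0.292. The other 6 pairs were 0.519 (Cel and Clps) to 0.930 (Pnliprp1 and Pla2g1b) apart. Pearson's r over the 6 arrays ran from 0.937 to 0.996, a description only, since the arrays share their antibody and size class. The nearness of Clps to Pnliprp1 holds for the first Clps probe: the second had a first step of -1.78 with B29 and -2.28 with IgG, close to the -2.21 and -2.54 of Cel.

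The probes of 1 gene also differed in the size of a step. The 2 Clps probes differed in the first step, at -1.30 and -2.03 over both antibodies, and the 2 Pnliprp2 probes at -2.71 and -3.49. Over the 6 arrays r was 0.977 between the Clps probes and 0.982 between the Pnliprp2 probes. At the second step with IgG, the second Pnliprp2 probe differed by -0.19, against -0.91 for the first.

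The genes most like the members' mean profile, among 52 with a range of at least 2 log2 units and detected on at least 5 arrays, were mostly genes of acinar enzymes and zymogen granule proteins. Cela1, a pancreatic elastase gene, was nearest at 0.0833, with log2 values of 13.69 with B29 and 13.57 with IgG under 100 µm, 11.78 and 11.26 at 100 to 200 µm, and 7.39 with B29 against 10.69 with IgG over 200 µm. Next came Cela3b (0.169), the zymogen granule gene Sycn (0.182), Cpb1 (0.233), Zg16 (0.235), Ctrb1 (0.242), Cpa1 (0.250), Gm5771 (0.272), Ctrc (0.276) and Rnase1 (0.300). Of these 10 genes, 9 were on the acinar lists. Many of the 52 candidates were acinar genes as well, and their share was not counted, so the 9 is a description only. For single members the nearest gene was Cpa1 for Clps (0.116), Ctrc for Cel (0.141) and for Pla2g1b (0.213), Gp2 for Pnliprp2 (0.154) and Try4 for Pnliprp1 (0.295).

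Lipase genes of other tissues and of the cell interior did not share the profile. In the pancreatic lipase superfamily outside the pancreas, 3 of 10 genes were tested, and 0 passed in any contrast. Lpl, the lipoprotein lipase gene, was detected on all arrays and read 9.57 with B29 and 8.80 with IgG over 200 µm, against 9.47 and 8.79 under 100 µm, a fitted difference of 0.06. Of 14 intracellular lipase genes 8 were tested and 0 passed in any contrast, with a median of 0.00 between large and small islets. Pnpla2, the gene of adipose triglyceride lipase, stood at -0.09, Pnpla8 at -0.20 and Mgll, the gene of monoglyceride lipase, at 0.32. Of 18 genes of other phospholipases A2 and the receptor, 7 were tested and 0 passed, with a median of 0.08. Among them Pla2g12a stood at -0.20, Pla2g15, the lysosomal enzyme's gene, at 0.19 and Pla2g6 at -0.04. The colipase-like gene Clpsl2 was detected on 0 arrays.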

How the data were processed

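Total RNA of pancreatic islets was biotin-labelled and hybridised to Illumina mouse arrays, per the labels' protocols. The deposited raw table holds an intensity and a detection p-value for each probe and array. The authors' second table holds log2 values; limma 3.34.9 is named per the submitters' processing notes. Running neqc of limma 3.58.1 in R 4.3.3 (offset 16, quantile normalization) on the deposited intensities gave those log2 values to within 0.00037, so the deposited log2 values were used. In the raw table, 22 rows hold a word in place of a number and were not used.

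Probes were named through the platform table and a RefSeq gene table (GRCm38.p6, names and gene order only); 35784 of 45281 matched. Tests covered the 16774 probes that 2 or more of the 6 arrays detected, at a detection p under 0.05. One limma fit (lmFit, eBayes) took antibody and diameter class as additive factors, leaving 2 residual and 6.60 prior degrees of freedom, with Benjamini-Hochberg adjustment at 0.05. Within a class or an antibody, 1 array stands against 1, and differences have no test. The number of arrays limits the precision. Named are all members, the 10 genes nearest their mean profile and the nearest gene of each member. From each other list, up to 4 of the brightest genes, any that passed and some that no array detected are named. Alternatives were other background corrections, scalings, filters, 1 probe per gene, a trended robust eBayes, a factor left out, and arrays left out. The members and lists were chosen with earlier results of these data known.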

Additional observations from a re-analysis of the deposited data

Results flagged for a closer look

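The difference between B29 and IgG in islets over 200 µm was far below that in both smaller classes for all 5 detected genes. Its sign was opposite to both for 4 of them, while Clps was level under 100 µm and its second probe -0.05 there. For Pnliprp1, B29 minus IgG was -3.60 on the log2 scale over 200 µm, beside 0.06 under 100 µm and 0.02 at 100 to 200 µm. For Pnliprp2 it was -2.87, beside 0.18 and 0.42 in the same order. For Cel it was -3.55, beside 0.22 and 0.54. For Clps it was -3.77, beside 0.00 and 0.46. For Pla2g1b it was -3.06, beside 0.59 and 1.05. The difference between the classes was not tested, since each value rests on 1 array per antibody and with an interaction term no degrees of freedom would remain for the residual. The 27 other acinar genes had medians of -3.02 over 200 µm, 0.33 under 100 µm and 0.51 at 100 to 200 µm on the same arrays.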

How the results depend on the processing

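No member passed the comparison of B29 with IgG over the classes under any of its 19 alternatives. Its direction depended on the class over 200 µm: without that pair, or without either of its arrays, B29 minus IgG became 0.041 for Pnliprp1, 0.30 for Pnliprp2 (0.73 for its second probe), 0.38 for Cel, 0.23 for Clps (0.19 for its second probe) and 0.82 for Pla2g1b. Leaving out other single arrays gave values down to -1.79 for Pnliprp1, -1.35 for Pnliprp2 (-0.83 for its second probe), -1.67 for Cel, -1.88 for Clps (-1.39) and -1.23 for Pla2g1b. The second Pnliprp2 probe also turned, to 0.00266, without background correction. The 3 genes that passed between over 200 and under 100 µm became 0 without background correction, with a normexp offset of 50, with median centring, without the filter on dim probes and with a trended robust eBayes, and 0 to 5 when 1 array was left out. Without the filter more probes entered both the variance estimate of the fit and the adjustment. Why the calls were lost was not tested for any of these settings. Cel alone was also lost with 1 probe per gene (adjusted p = 0.0547 in limma). Leaving out 1 array gave 0 to 5 genes at each of the other steps of diameter, where 0 passed. The median of the 5 genes over 200 µm, B29 minus IgG, was -3.55, and became -2.96 without background correction, -3.17 with an offset of 50 and -3.85 with median centring. With B29, over 200 minus under 100 µm moved from -6.79 to -5.51 without background correction and -5.77 with an offset of 50. Over 200 minus 100 to 200 µm with B29 moved from -4.71 to -4.09, -4.25, -4.48 (cyclic loess) and -4.96 (median centring). Cyclic loess also gave -2.66 with B29 and -2.86 with IgG for 100 to 200 minus under 100 µm, and -3.46 with IgG for over 200 minus under 100 µm. Signals near background limit Pnliprp2 and Pla2g1b on the B29 array over 200 µm. The fit already sets B29 against IgG within each diameter class, and the labels give no replicate number to pair by.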
